A study of Saccharomyces cerevisiae with 16 samples.

Results

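The centromeres of budding yeast were followed here together with the regions beside them, as spotted on a whole-genome array. Members were selected by name: 16 features named CEN with a chromosome number and 16 named ICEN with a chromosome number, 32 of the 13059 feature names analysed. The naming rule uses no measured value, though these names were taken up with earlier results of the data known. On this array an initial I also marks the intergenic region named after an ORF, but what ICEN spans, and on which side of the centromere it lies, is not stated in the labels or files. Both sets are therefore called by their names. The spots were PCR products, whose sequences and positions are not shown because no file used here holds them.

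Chromatin immunoprecipitation on microarrays (ChIP-chip) compared a MYC pulldown (the IP) with total genomic DNA (the input) on 16 arrays of 2 colours. The study set out to find where replication forks pause. All cells were haploid Saccharomyces cerevisiae of the W303a background, fixed while growing asynchronously in YEPD rich medium at an optical density of 0.25. The first group was the IP of Pol2-13MYC in cells with RRM3 intact, on 4 arrays (039, 086, 136 and 230), called wild type below. The second was the IP of Pol2-13MYC from cells labelled rrm3 delete, on 6 arrays (040, 137, 182, 183, 239 and 240), and the third was the IP of Rrm3-13MYC, on 5 arrays (031, 041, 088, 184 and 185). All groups thus carried a MYC tag, and no array of untagged cells was analysed here. An array averages many cells, so that more cells with the protein at a site and more protein per cell cannot be told apart.

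A yeast centromere is a short, sequence-defined stretch of DNA that wraps a single specialised nucleosome and holds the kinetochore, the protein assembly that binds a spindle microtubule. Such a tightly bound complex is known to slow replication forks passing through it. Pol2 is the catalytic subunit of DNA polymerase epsilon, which travels with the fork on the leading strand. Rrm3 is a DNA helicase that helps forks past stable protein-DNA complexes, among them centromeres, tRNA genes and telomeres.

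Between 6273 and 12905 features were measured per array, among them 5 to 16 CEN and 4 to 16 ICEN features. Arrays 136 and 182, with 49.7% and 54% of spots carrying a quality flag, held the fewest CEN and the fewest ICEN features. Array 136 was read against its label, in the direction of the deposited value table: as labelled it correlated at -0.54 to -0.15 with the other grouped arrays, and as used at 0.15 to 0.54. The RRM3 spot checks the deletion. On 5 of the arrays labelled rrm3 delete its input signal lay at percentiles 1.6 to 12.1 of its array, but on array 239 at 50.1, against 32.2 to 94.8 in both other groups. The RRM3 spot of array 239 therefore goes against its label. The median log2 IP over input of tRNA genes on that array was 0.82. It was 0.81 to 0.99 on the other arrays labelled rrm3 delete and -0.11 to 0.03 in wild type. The protocol text of wild-type array 086 names an H3K36me2 antibody beside the MYC antibody. Array 031 correlated weakly with the others (r -0.07 to 0.23). Arrays 031 and 041, both of the Rrm3 group, follow a second layout of 18432 spots, against 14976 on all other arrays. Array 231, whose labels contradict each other on the deletion, entered no comparison.

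Values are log2 ratios of IP over input, centred on each array's median, so that 0 is the level of the median feature and a value of 1 is a doubling above it. Fitted means come from 1 linear model over 15 arrays with a dye term (limma, two-sided, Benjamini-Hochberg adjustment over the 12380 features measured on at least 3 arrays of each group), and errors are standard errors (SE). A feature is called where its adjusted p is under 0.05. Of the members, 14 CEN and 15 ICEN features could be tested.

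In the Rrm3 IP, centromeres lay above the array median. All 14 tested CEN features had a positive fitted mean, from 0.13 at CEN1 to 0.85 at CEN3, with a median of 0.54 against -0.02 over all features. By the test 9 of the 14 were called higher and 0 lower, where 11% of all features were called higher and 23.7% in either direction. The called centromeres were those of chromosomes 2, 3, 4, 6, 7, 8, 9, 11 and 13, with fitted enrichments of 1.39- to 1.81-fold over the median feature. Counted array by array, 60 of 68 CEN values (88.2%) were above their array's median.

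**Figure D1:**
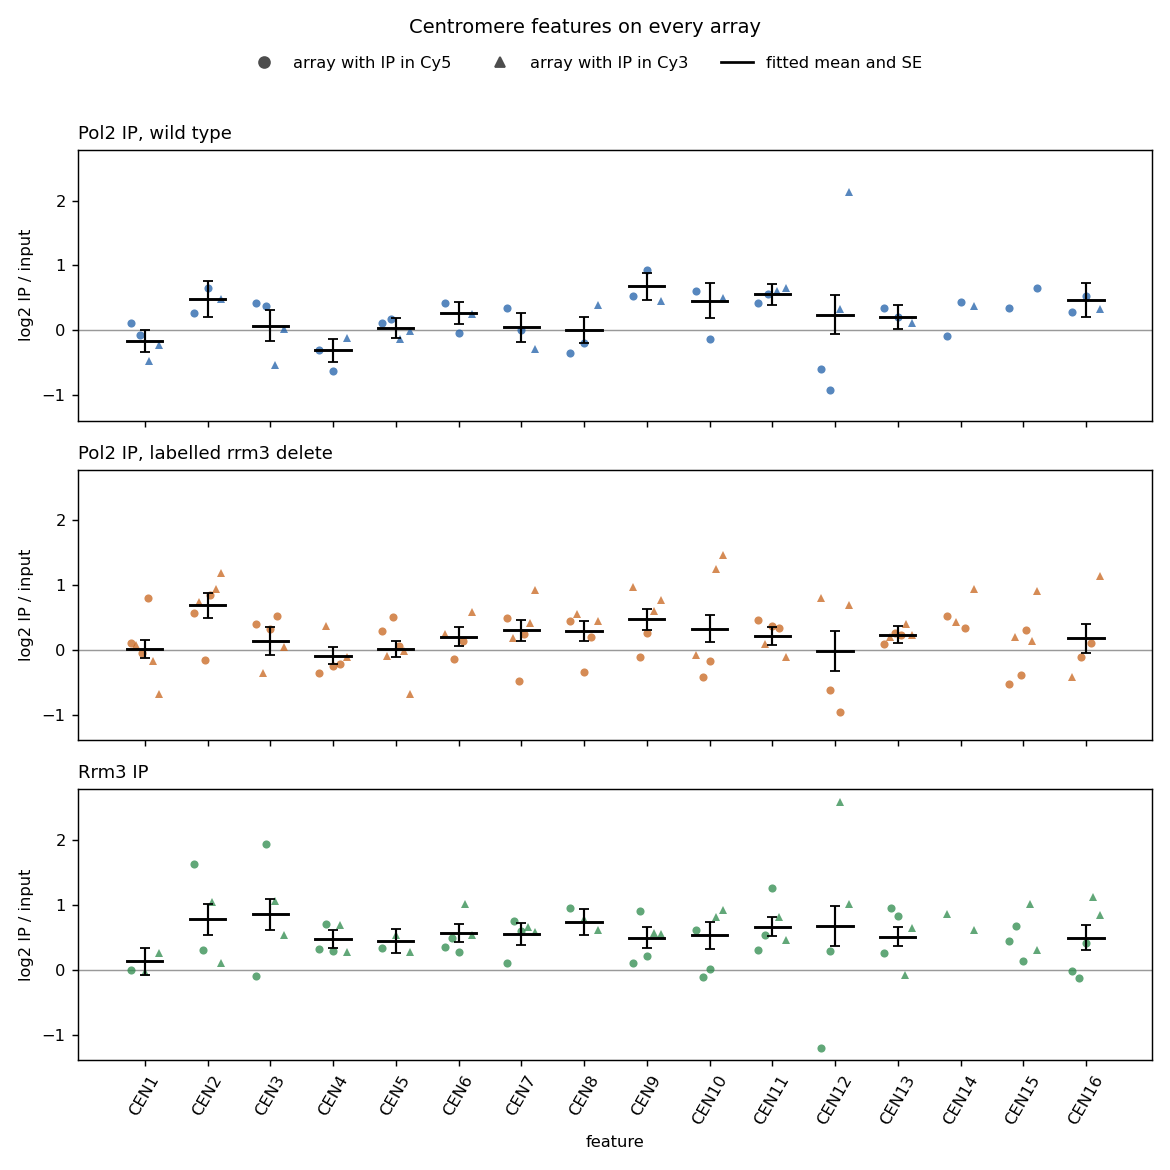
Log2 IP over input (vertical axis) of the 16 CEN features (horizontal axis) on each array, by group. Circles are arrays with the IP in Cy5 and triangles arrays with the IP in Cy3, and black bars with whiskers are the fitted mean and SE of the 14 tested features. In the Rrm3 IP all fitted means are above 0, while in wild type CEN1 and CEN4 are lowest, below 0, and CEN12 splits by dye in every group.

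CEN3 had the highest fitted mean of the CEN features in the Rrm3 IP and also the widest spread among the called features. It read 1.94 on array 031, -0.10 on 041, 1.05 on 184 and 0.53 on 185, and 0.85 ± 0.24 in the fit (SE, n = 4, adjusted p 0.021). Array 041 alone put it below the median. CEN2 was likewise carried by a pair of arrays, with 1.64 on 031 and 1.05 on 184 against 0.31 on 088 and 0.11 on 185 (fit 0.78 ± 0.24, n = 4, adjusted p 0.030).

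CEN8 and CEN11 were more even between arrays. CEN8 gave 0.95, 0.79 and 0.61 on arrays 031, 184 and 185, the 3 Rrm3 arrays that measured it (0.73 ± 0.20, adjusted p 0.021). CEN11 gave 0.54, 0.30, 1.27, 0.81 and 0.46 on arrays 031, 041, 088, 184 and 185 (0.66 ± 0.14, n = 5, adjusted p 0.0060), the lowest adjusted p among centromeres. No array of either feature fell below the median. The call of CEN8 was kept under 24 of 31 other settings, with values down to 0.20, and lost without array 031 or 184. That of CEN11 was kept under 28 of 30.

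CEN4, CEN6, CEN7 and CEN9 were above the median on all 5 Rrm3 arrays. In array order 031, 041, 088, 184 and 185, CEN4 read 0.71, 0.31, 0.28, 0.69 and 0.27 (0.48 ± 0.13, adjusted p 0.021). CEN6 read 0.49, 0.35, 0.28, 1.02 and 0.54 (0.57 ± 0.14, adjusted p 0.011). Arrays 031 and 184 were at the top for CEN4, and array 184 stood highest for CEN6. CEN7 read 0.76, 0.10, 0.60, 0.65 and 0.58 (0.55 ± 0.17, adjusted p 0.030), with array 041 far below the other 4. CEN9 read 0.90, 0.10, 0.22, 0.57 and 0.56 (0.50 ± 0.16, adjusted p 0.037), again lowest on array 041. The call of CEN7 was lost without array 031, 088, 184 or 185. The call of CEN9 was kept under 19 of 30 other settings and lost without array 039, 239, 240, 031, 184 or 185. CEN13 differed from these in being low on array 184: 0.95, 0.26, 0.83, -0.08 and 0.64 (0.51 ± 0.14, adjusted p 0.019), and it was not called without array 088 or 185.

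The other 5 tested centromeres were positive in the fit but not called. CEN12 had a mean of 0.67 ± 0.30 (n = 4, adjusted p 0.12) and CEN10 of 0.53 ± 0.21 (n = 5, adjusted p 0.078). CEN16 stood at 0.50 ± 0.20 (n = 5, adjusted p 0.085), negative on arrays 031 and 041 and between 0.41 and 1.13 on the other three. CEN5 had a mean of 0.44 ± 0.18 (n = 3, adjusted p 0.094), with 0.33, 0.54 and 0.28 on arrays 041, 184 and 185. CEN1 was the lowest centromere in this IP, with -0.01, -0.04 and 0.26 on the same 3 arrays (0.13 ± 0.21, adjusted p 0.68). Of the untested members, CEN14 was measured on arrays 184 and 185 only, at 0.86 and 0.61, and CEN15, short of wild-type arrays, read 0.68, 0.44, 0.13, 1.01 and 0.30.

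The number of centromeres called in the Rrm3 IP rested on single arrays more than their level did. Without array 184 it fell from 9 to 2 (CEN11 and CEN13), while features called higher overall fell from 1360 to 612. Without array 031 it fell to 4 (CEN4, CEN6, CEN11 and CEN13), while features called higher overall went up to 1566. Without both arrays of the second layout, 031 and 041, it was 7, with 1572 features called higher overall. The median of the 14 was 0.53 without array 184 and 0.47 without array 031. With arrays of 1 dye orientation alone, 0 were called (median 0.42 on arrays with the IP in Cy5 and 0.62 with the IP in Cy3), and features called higher overall were 166 and 295.

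By mean signal over the arrays of both layouts, centromere spots were dim, and dim spots read higher in the Rrm3 IP. The mean signal of CEN features lay at a median percentile of 26.8 among all features, and 10 of the 14 tested CEN features fell in the dimmest of 4 equal bins of signal. In that bin the median of all features was 0.22 in the Rrm3 IP and 19.5% were called higher, against a median of 0.56 and 7 called of those 10 centromeres. In the second bin the same medians were 0.02 for all features and 0.53 for its 3 centromeres. Normalising each array for signal by loess gave a CEN median of 0.61 with 11 called, and leaving out dim spots gave 0.51 with 6 called of the 7 CEN features that could still be tested. The part of brightness in single values was not tested. On array 041, of the second layout, input percentiles of measured CEN features ran from 6.3 at CEN3 to 88.3 at CEN4. The deposited value table, which is centred otherwise, put the median of all features in the Rrm3 IP at -0.11, called 778 higher and 1835 lower against 1360 and 1578 here, and gave a CEN median of 0.44 with 6 called.

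For Pol2 in wild-type cells the centromere values were lower and less even on the log2 scale. Arrays were not scaled to the same spread. Over all features the standard deviation was 0.45 to 0.59 on wild-type arrays and 0.48 to 1.03 on Rrm3 arrays. It was largest on arrays 031 (1.03) and 184 (0.80), which also had the highest CEN medians of the Rrm3 group (0.73 and 0.81). The part of this spread in the gap between the groups was not tested. The median of the 14 fitted means was 0.22 against 0.01 over all features, 11 of 14 were positive, and 35 of 52 array values (67.3%) were above the array median. By limma 0 CEN features were called in either direction, where 0.937% of all features were called higher, 2.37% lower and 3.3% in either direction. At an unadjusted p under 0.05, 2 were higher, CEN9 and CEN11, or 14.3% of the 14 against 7.8% of all features. The dimmest bin of all features had a median of 0.13 in this group.

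CEN9 had the highest Pol2 value in wild type, with 0.53, 0.93 and 0.45 on arrays 039, 086 and 230 (0.68 ± 0.21, adjusted p 0.091). CEN11 came second, with 0.42, 0.55, 0.60 and 0.65 on arrays 039, 086, 136 and 230 (0.56 ± 0.16, adjusted p 0.069). Neither of them read below the median on any wild-type array. CEN2 (0.49 ± 0.28), CEN16 (0.47 ± 0.26) and CEN10 (0.46 ± 0.27) followed, each on 3 arrays. CEN6 (0.27 ± 0.18), CEN12 (0.24 ± 0.30) and CEN13 (0.20 ± 0.18) came next, and CEN3 (0.07 ± 0.24), CEN7 (0.05 ± 0.22) and CEN5 (0.04 ± 0.16) were close to the median feature. CEN8 lay at the median, with -0.34, -0.19 and 0.39 on arrays 039, 086 and 230. The lowest were CEN1 (-0.17 ± 0.18, n = 4) and CEN4, which read -0.31, -0.63 and -0.12 on arrays 039, 086 and 230 (-0.31 ± 0.17). Neighbours in this order differed by less than the larger of their errors. The untested CEN14 read -0.08, 0.43 and 0.38 on arrays 039, 086 and 230, and CEN15 read 0.35 and 0.65 on arrays 039 and 086.

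Centromere values for Pol2 were much the same in level on arrays labelled rrm3 delete, with a median of 0.21 against 0.00 over all features. There 12 of 14 fitted means were positive, and 56 of 82 array values (68.3%) lay above the median. Only CEN2 was called higher and 0 lower, where 9.38% of all features were called higher, 6.91% lower and 16.3% in either direction. CEN2 read 0.57 on array 040, -0.15 on 137, 1.19 on 182, 0.74 on 183, 0.84 on 239 and 0.95 on 240, and 0.69 ± 0.19 in the fit (adjusted p 0.025). It was above the median on 5 of the 6 arrays, and it was not called without array 040, 182, 183, 239 or 240.

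CEN9 was the next highest on the arrays labelled rrm3 delete, at 0.47 ± 0.16 (n = 5, adjusted p 0.057). CEN10 had a mean of 0.33 ± 0.21 over 5 arrays that fell apart, with 1.46 and 1.24 on arrays 182 and 240 and -0.42 to -0.08 on the rest. Arrays 182 and 240 had the IP in Cy3, as did array 183, where CEN10 read -0.08. CEN13 lay between 0.09 and 0.39 on 6 of 6 arrays (0.24 ± 0.13, adjusted p 0.24). CEN7 (0.30 ± 0.15), CEN8 (0.29 ± 0.15), CEN11 (0.22 ± 0.14), CEN6 (0.21 ± 0.15), CEN16 (0.18 ± 0.22) and CEN3 (0.14 ± 0.22) were in between. CEN1 (0.02 ± 0.14), CEN5 (0.01 ± 0.13) and CEN12 (-0.02 ± 0.30) were at the level of the median feature, and CEN4 (-0.09 ± 0.13) was lowest, as in wild type. The untested CEN14 was positive on all 4 arrays that measured it (0.35 to 0.95), while CEN15 ran from -0.52 to 0.92 over 6 arrays.

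The comparison of these arrays with wild type asks whether Pol2 accumulates at centromeres when the helicase is missing. The 14 differences ran from -0.34 at CEN11 to 0.29 at CEN8 with a median of 0.01, and 7 of the 14 were positive. By limma 0 CEN features were called, where 0.557% of all features were called higher and 0% lower. At an unadjusted p under 0.05 there were 0 as well, against 4.5% of all features higher and 0.953% lower. With shares this small, 0 of 14 does not set centromeres apart from all features. All 14 intervals (95%) included 0, and they were 0.86 to 1.85 wide, so that differences of the size fitted here could not be told from 0 with this number of arrays.

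The same difference at tRNA genes, which are known sites of Rrm3 action, gives a scale for these intervals. Of 41 tested tRNA gene features 8 were called higher and 0 lower, where 0.557% and 0% of all features were, and the median difference was 0.91. The upper bound of the interval lay below that value at 13 of 14 CEN features, the exception being CEN2 at 0.93, and at 14 of 15 ICEN features, the exception being ICEN1 at 1.39. Single tRNA differences ran from 0.43 to 1.64, however, and most member intervals reached into that range. Upper bounds below the lowest tRNA difference were those of CEN5 (0.41), CEN9 (0.35), CEN11 (0.11) and ICEN7 (0.22) alone. On single arrays labelled rrm3 delete the tRNA median lay between 0.81 and 0.99, and the CEN median between -0.14 and 0.84. In wild type the CEN median ran from -0.13 to 0.34, within that range. The tRNA spots were brighter, at a median signal percentile of 84.7, and the part of brightness in this contrast was not tested. Array 239, whose RRM3 spot goes against its label, had a CEN median of 0.24 and a tRNA median of 0.82.

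**Figure D2:**
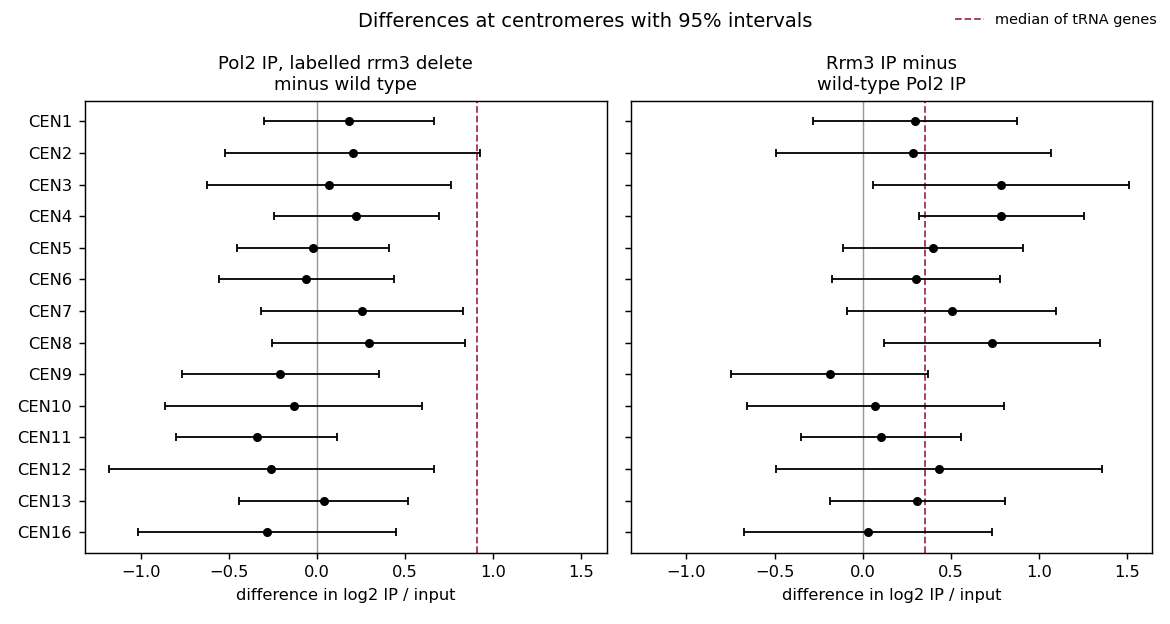
Differences in log2 IP over input (horizontal axis) at the 14 tested CEN features with 95% intervals, for arrays labelled rrm3 delete minus wild type (left) and the Rrm3 IP minus wild-type Pol2 IP (right). The dashed line is the median difference of tRNA genes in the same contrast, 0.91 on the left and 0.36 on the right, and on the left it lies outside all intervals but that of CEN2.

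The Rrm3 IP and the wild-type Pol2 IP are pulldowns of different proteins, and their difference shows where the profiles diverge. It was taken on the log2 scale without scaling for the wider spread of the Rrm3 arrays. Both this comparison and the one before it use the same 4 wild-type arrays. At CEN features the difference had a median of 0.31 against -0.01 over all features, and 13 of 14 were positive, with CEN9 the exception at -0.19. By limma 0 members were called, where 0.00808% of all features (1 of 12380) were called higher and 0% lower. At an unadjusted p under 0.05 there were 3 CEN features, CEN3, CEN4 and CEN8, all higher, or 21.4% of the 14 against 4.53% of all features. Without arrays 031 and 041, 10 CEN features kept at least 3 arrays per group. Their median difference was 0.30, with 0 called.

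CEN4 differed most: its wild-type values, -0.63 to -0.12, lay entirely below its Rrm3 values, 0.27 to 0.71. The fitted difference was 0.79, with an interval of 0.32 to 1.25 (n = 5 and 3, adjusted p 0.29). CEN3 came to 0.78 (0.06 to 1.51), but its arrays overlapped, since array 041 gave -0.10 in the Rrm3 IP and 2 wild-type arrays gave 0.43 and 0.38. CEN8 came to 0.73 (0.12 to 1.35), and all 3 Rrm3 values were above the 3 wild-type values. At CEN16 (0.03), CEN10 (0.07) and CEN11 (0.10) the fitted means of both pulldowns nearly coincided, with intervals at least 0.91 wide.

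**Figure D3:**
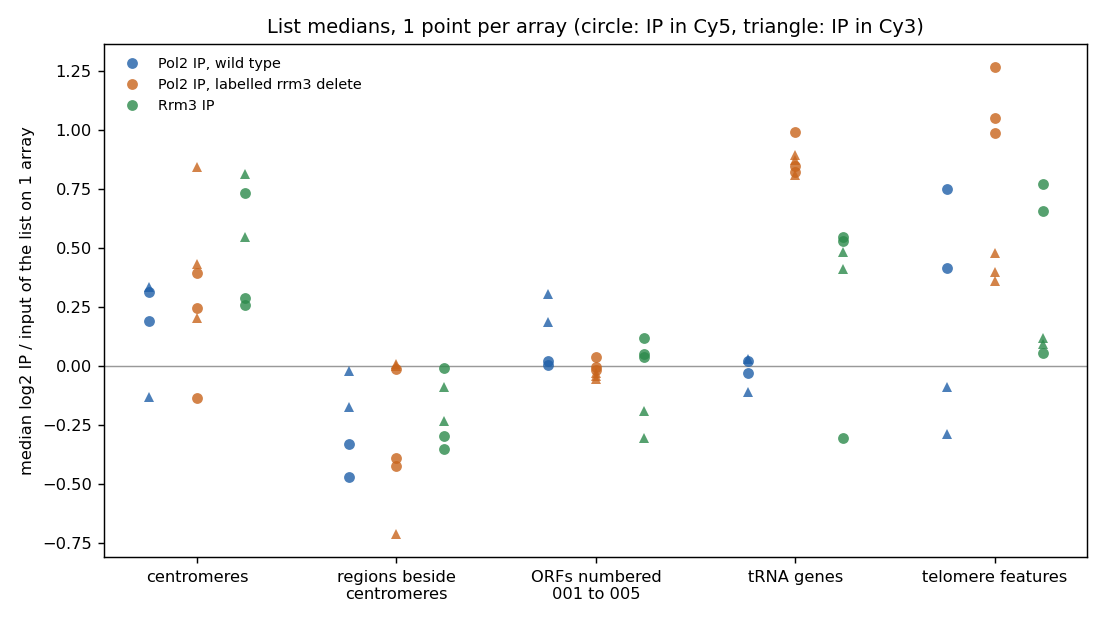
Median log2 IP over input (vertical axis) of 5 lists of features on each array (1 point per array; circle: IP in Cy5, triangle: IP in Cy3). The CEN medians of all groups overlap, from -0.14 to 0.84, while the tRNA medians of arrays labelled rrm3 delete, 0.81 to 0.99, lie above those of all other arrays.

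By array, the CEN median in the Rrm3 IP was 0.73 on 031, 0.26 on 041, 0.29 on 088, 0.81 on 184 and 0.55 on 185. It was thus positive on 5 of 5 arrays, and positive on 3 of 4 wild-type arrays and on 5 of 6 arrays labelled rrm3 delete. The negative ones were array 136, with 5 CEN features measured, and array 137, with 15. Array 031 set the groups of features apart: its CEN median was 0.73 and its tRNA median -0.30, while on the other 4 Rrm3 arrays the tRNA median was 0.41 to 0.55. In the fit, tRNA genes had a median of 0.31 in the Rrm3 IP with 14 of 41 called higher, where 11% of all features were. The 8 tested telomere features had a median of 0.26 with 1 called higher, which is near the share of all features.

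The ICEN features showed another picture. Their median was below 0 in all groups, -0.18 in wild type, -0.14 on arrays labelled rrm3 delete and -0.17 in the Rrm3 IP. Above the array median were 12 of 49 values (24.5%) in wild type, 30 of 75 (40%) on arrays labelled rrm3 delete and 29 of 72 (40.3%) in the Rrm3 IP. The last of these medians turned to 0.07 without array 031, that of the arrays labelled rrm3 delete to 0.02 without array 183, and that of wild type to 0.03 with arrays of the IP in Cy3 alone. Called lower were 2 of 15 in wild type (ICEN4 and ICEN11), 3 on arrays labelled rrm3 delete (ICEN3, ICEN4 and ICEN11) and 2 in the Rrm3 IP (ICEN6 and ICEN11), where 2.37%, 6.91% and 12.7% of all features were called lower. Called higher were 2 in the Rrm3 IP (ICEN7 and ICEN10) and 0 in both Pol2 groups, where 11%, 0.937% (wild type) and 9.38% of all features were called higher. In the Rrm3 IP the share called lower and the share called higher were thus both near those of all features. At an unadjusted p under 0.05 there were 5 lower and 0 higher in wild type, against 9.01% and 7.8% of all features. On the arrays labelled rrm3 delete 3 were lower and 1 was higher, ICEN15, against 13.5% and 16.1% of all features. In the Rrm3 IP 3 were lower and 4 higher, against 20.1% and 17.8%.

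**Figure D4:**
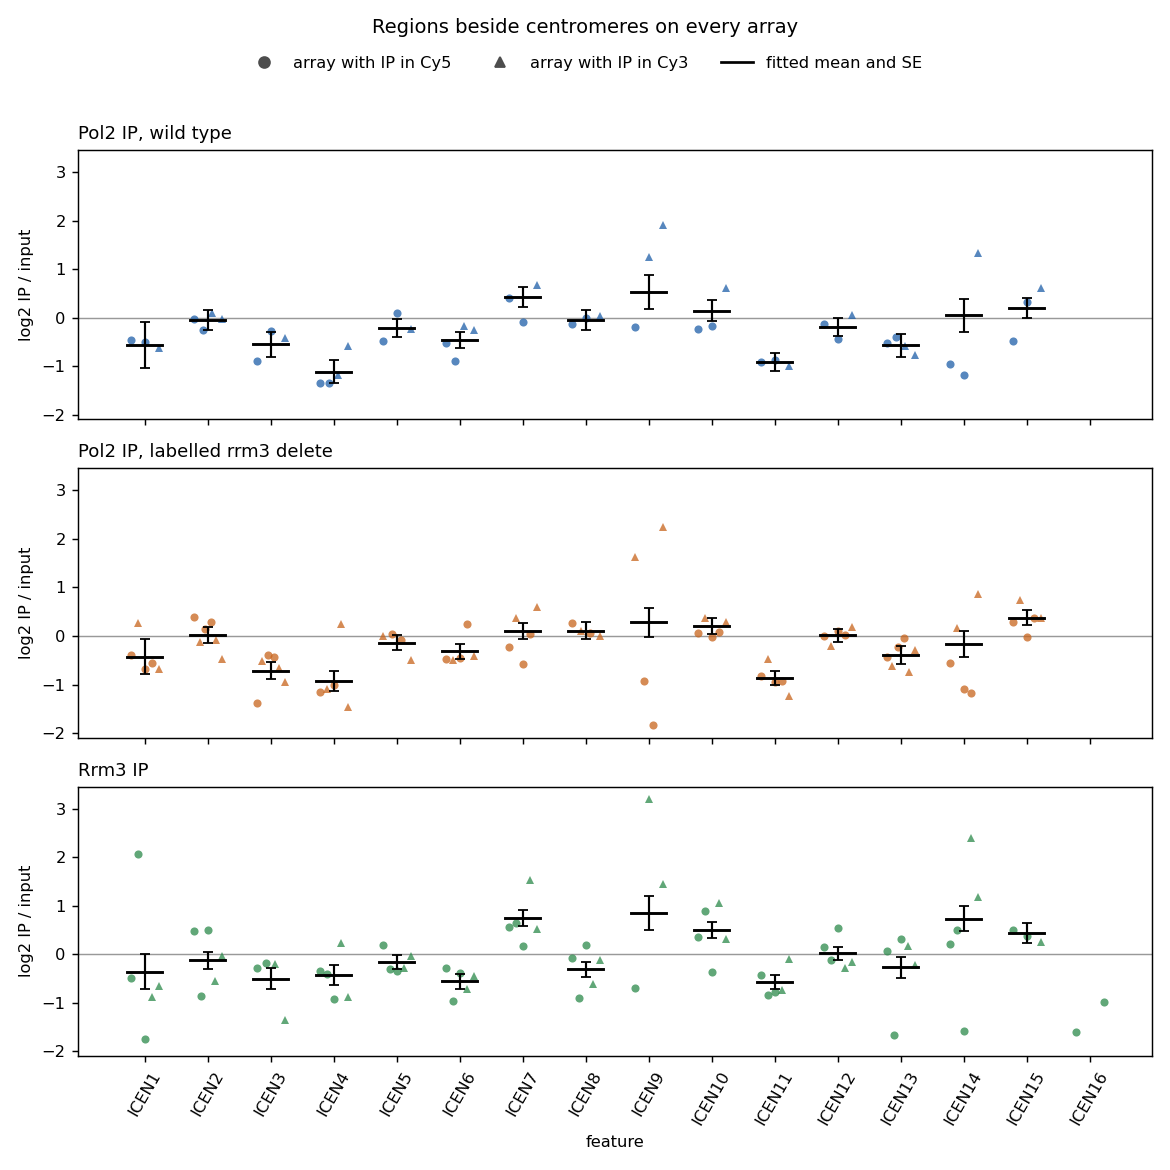
Log2 IP over input (vertical axis) of the 16 ICEN features (horizontal axis) on each array, by group, with symbols as for the centromeres (circle: IP in Cy5, triangle: IP in Cy3, black: fitted mean and SE of the 15 tested features). ICEN11 lies below 0 on all 13 plotted arrays, and ICEN9 and ICEN14 split by dye.

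ICEN11 was below the median in all groups. It read -0.92, -0.86 and -0.998 on wild-type arrays 039, 086 and 230, between -1.24 and -0.48 on 5 arrays labelled rrm3 delete, and -0.83, -0.43, -0.79, -0.74 and -0.09 on Rrm3 arrays 031, 041, 088, 184 and 185. All 13 values were thus below the median, and only array 185 came near it. The fitted means were -0.91 ± 0.19, -0.87 ± 0.14 and -0.57 ± 0.14, with adjusted p of 0.014, 0.00079 and 0.014. The call in wild type was lost without array 039, 086 or 230, with the deposited table, with array 136 as labelled and with either dye orientation alone, and that in the Rrm3 IP without array 184 and with the IP in Cy3 alone.

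ICEN4 was lower still in wild type, with -1.35, -1.34, -1.19 and -0.58 on arrays 039, 086, 136 and 230 (-1.11 ± 0.24, adjusted p 0.015). It was not called in wild type without array 039, 086 or 136. On arrays labelled rrm3 delete it read -1.47 to -1.01 on 4 arrays and 0.26 on array 240 (-0.93 ± 0.21, adjusted p 0.0068). In the Rrm3 IP it was less depleted, from -0.93 to 0.24 (-0.43 ± 0.21, adjusted p 0.15). Its difference between the Rrm3 IP and wild-type Pol2 was 0.69 (0.02 to 1.36, adjusted p 0.45), the only ICEN feature with an unadjusted p under 0.05 there. Its spot was among the dimmest of the members, at percentile 7.79 of mean signal.

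ICEN3 was below the median on all 13 arrays that measured it, and lowest on array 040, at -1.38. Its fitted mean was -0.72 ± 0.17 on arrays labelled rrm3 delete (n = 6, adjusted p 0.011, not called without array 040), -0.55 ± 0.25 in wild type and -0.50 ± 0.21 in the Rrm3 IP. ICEN6 read -0.96, -0.28, -0.38, -0.72 and -0.45 on the 5 Rrm3 arrays (-0.55 ± 0.15, adjusted p 0.019, not called without array 184), and was also negative on all 4 wild-type arrays (-0.46 ± 0.17, adjusted p 0.17). On arrays labelled rrm3 delete it was negative on 4 of 5, array 239 being the exception at 0.24. ICEN13 (-0.57 ± 0.24) and ICEN1 (-0.56 ± 0.47) completed the low end in wild type without being called.

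ICEN7 and ICEN10 ran the other way. ICEN7 read 0.64, 0.56, 0.18, 1.52 and 0.52 on Rrm3 arrays 031, 041, 088, 184 and 185 (0.75 ± 0.16, adjusted p 0.0059), so that all 5 arrays were above the median. For Pol2 it stood at 0.43 ± 0.21 in wild type (adjusted p 0.30) and at 0.10 ± 0.16 on arrays labelled rrm3 delete. ICEN10 read 0.90, 0.36, -0.35, 1.06 and 0.32 on the same Rrm3 arrays (0.50 ± 0.17, adjusted p 0.042). That call was the weakest among the members, kept under 12 of the 30 other settings that could test it. For Pol2, ICEN10 stood at 0.14 ± 0.22 in wild type and at 0.20 ± 0.17 on arrays labelled rrm3 delete. By mean signal over all arrays both spots lay in the dimmest bin, but not on arrays 031 and 041, which follow a second layout. There the input signal lay at percentiles 85.9 and 88.3 for ICEN7 and 93.3 and 75.8 for ICEN10. The part of brightness in these calls was not tested. ICEN15 was among the 3 highest in both Pol2 groups, at 0.20 ± 0.21 in wild type and 0.38 ± 0.16 on arrays labelled rrm3 delete, and had 0.43 ± 0.21 in the Rrm3 IP, without a call.

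The remaining ICEN features were near the median feature or uneven. ICEN2, ICEN5, ICEN8 and ICEN12 had fitted means between -0.31 and 0.11 in all groups, and ICEN12 was the closest to 0 in the Rrm3 IP, at 0.02 ± 0.14. ICEN13 was negative on all 4 wild-type arrays and on all 6 labelled rrm3 delete, but in the Rrm3 IP read 0.07, 0.32 and 0.18 on arrays 041, 088 and 184 against -1.65 on array 031 and -0.22 on 185. ICEN1 spread widely in the Rrm3 IP, from -1.75 on array 088 to 2.06 on array 031. ICEN16 was measured on arrays 031 and 041 alone, which follow a second layout, at -0.97 and -1.60.

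Neither difference between groups gave a call at ICEN features. For arrays labelled rrm3 delete minus wild type the 15 differences had a median of 0.08, ran from -0.33 at ICEN7 to 0.20 at ICEN12, and all intervals included 0. For the Rrm3 IP minus wild-type Pol2 the median was 0.23, with a lowest value of -0.26 at ICEN8 and a highest of 0.69 at ICEN4. In both, the intervals were 0.97 to 2.50 wide.

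Set against the ICEN feature of the same chromosome, the CEN feature was higher nearly everywhere. This was so on 12 of 13 chromosomes in wild type, with a median difference of 0.43, on 12 of 13 on arrays labelled rrm3 delete, with 0.44, and on 11 of 13 in the Rrm3 IP, with 0.77. Chromosome 7 was the exception in wild type, chromosome 12 on arrays labelled rrm3 delete, and chromosomes 7 and 9 in the Rrm3 IP. Within the Rrm3 IP the gap was widest on chromosome 3 (1.36), chromosome 11 (1.23) and chromosome 6 (1.12), where a called CEN feature stood beside an ICEN feature below the median. On chromosome 7 both features were called higher in this IP, and on chromosome 10 they nearly coincided (0.53 and 0.50), the ICEN feature alone being called. ICEN spots were brighter than CEN spots (median signal percentile 42.3), and the part of this in the gap was not tested.

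**Figure D5:**
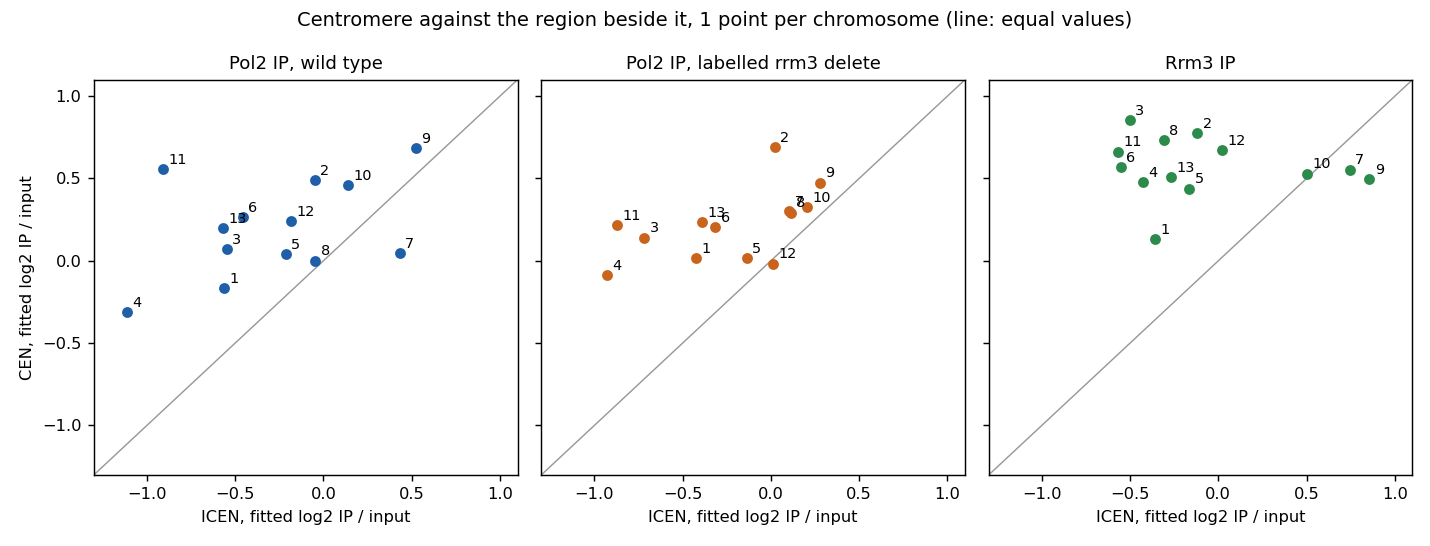
Fitted log2 IP over input of each CEN feature (vertical axis) against the ICEN feature of the same chromosome (horizontal axis) in the 3 groups, for the 13 chromosomes with both tested. Points are labelled by chromosome and the line marks equal values. Points lie above the line on 12, 12 and 11 of 13 chromosomes.

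The pattern of fitted means over sites was shared between groups to a different degree in the 2 lists. Across the 15 ICEN features the fitted means of wild type correlated with those of the arrays labelled rrm3 delete at Pearson r = 0.93 and with those of the Rrm3 IP at 0.86. Across the 14 CEN features the same correlations were 0.66 and 0.29, and over all 12380 features 0.69 and 0.56. By rank (Spearman) they were 0.92 and 0.86 for ICEN features and 0.57 and 0.28 for CEN features. In the Rrm3 IP fitted means spanned 0.13 to 0.85 at CEN and -0.57 to 0.86 at ICEN features. The part of this narrower range in the lower correlations was not tested. All these correlations are descriptions over sites that share spots, brightness and base composition.

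The ORFs next to centromeres lay near the median feature. Those with the number nearest the centromere on either arm, 31 of 32 of which were tested, had medians of 0.15 in wild type, 0.06 on arrays labelled rrm3 delete and 0.03 in the Rrm3 IP. None was called higher in any group, where 0.937%, 9.38% and 11% of all features were, in the same order. With a share as small as 0.937%, a count of 0 in wild type does not set these ORFs apart. RMD1, left of CEN4, was called lower in the Rrm3 IP at -0.87 (adjusted p 0.015), and 0 were called lower in the Pol2 groups. Of all features 2.37%, 6.91% and 12.7% were called lower. TFC3 had the highest value among these 31 ORFs in the Rrm3 IP, at 0.59 (adjusted p 0.10). In a wider window, the 161 tested ORFs numbered 001 to 005 on each arm had medians of 0.13, -0.01 and -0.12. In the Rrm3 IP 10 of these 161 were called higher and 20 lower, where 11% and 12.7% of all features were. The share called lower was thus near that of all features. The 141 tested intergenic features named after such ORFs had medians of 0.01, -0.03 and -0.02. No test compared CEN features with these lists.

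A few members followed the dye rather than the pulldown. For CEN12, a product recorded as failed in PCR, the value had a median of -0.76 on 6 arrays with the IP in Cy5 and of 0.91 on 6 arrays with the IP in Cy3. Its lowest reading was -1.20 on array 041 and its highest 2.59 on array 184, both Rrm3 arrays. ICEN9, another failed product, gave -1.84 to -0.19 with the IP in Cy5 and 1.24 to 3.20 with the IP in Cy3, without overlap. ICEN14 had medians of -1.02 and 1.18 in the same order. The dye term of these features was -1.93, -2.79 and -1.91 (adjusted p 0.0058, 0.0018 and 0.0037), and 625 of all 12380 features had a called dye term. In the same limma fit CEN10 and ICEN7 had dye terms of -0.79 and -0.62 that were not called (adjusted p 0.10 and 0.094).

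In the Rrm3 IP, ICEN9 (0.86 ± 0.35) and ICEN14 (0.73 ± 0.26) were among the 3 highest ICEN features without being called. ICEN9 was also the highest in wild type (0.53 ± 0.35) and the second highest on arrays labelled rrm3 delete (0.28 ± 0.30). CEN11, the third member recorded as a failed product, showed no such split, with a dye term of 0.12 (adjusted p 0.76). Leaving out all failed products gave a CEN median of 0.56 in the Rrm3 IP, with 8 of 12 called.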

How the data were processed

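Members were taken by name alone, but the names, lists and tests were chosen with earlier results of these data known. Per the file headers, the deposited intensity columns give a median signal and a median background per channel and spot, next to flags and notes of failed PCR. The authors' value table holds log2 ratios. Per the series text these were median-normalised. No label or header names the scanner, software or genome build.

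For each spot without a flag and with both signals above 0 after background subtraction, log2 of IP over input was taken, averaged over spots of a name and centred on the array's median. The deposited log2 columns followed these values with r of at least 0.999. The layouts differed for arrays 031 and 041, and names on the second layout alone were not used. A group mean for each group and a dye term were fitted with limma 3.58.1 in R 4.3.3 (lmFit, eBayes, prior degrees of freedom 6.12), over 12380 of 13059 names. Arrays 136 and 231 were handled as stated above. Dye swaps are technical replicates per the series text, and which arrays share an extract is not stated, so p-values measure the spread between arrays. The number of arrays limits the precision. Every CEN feature was named, and of ICEN features those called in any of 5 contrasts and the 3 highest and 3 lowest in each group. Lists of ORFs near centromeres, tRNA genes and telomere features serve as context. The self-test on 200 simulated features ran on the same 12380 features. Alternatives were other background corrections, loess, spot filters, array 136 as labelled, arrays left out, no dye term, the deposited table, another variance model and a block for neighbouring array numbers. Signal bins, the ORFs next to centromeres and the comparison with the tRNA median were chosen after seeing the data.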

Additional observations from a re-analysis of the deposited data

Results flagged for a closer look

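Within groups of 4 to 10 arrays, 71 of which could be checked, 5 held an array far from the rest of its group by Dixon's criterion, which chance alone gives in about 1 of 20. ICEN4 read 0.257 on array 240, the other 4 arrays labelled rrm3 delete lying at -1.47 to -1.01. ICEN6 read 0.237 on array 239, the others of that group lying near -0.50 to -0.41. In the Rrm3 IP, CEN7 read 0.105 on array 041 against 0.58 to 0.76 on the others, ICEN3 read -1.36 on array 185 against -0.29 to -0.17, and ICEN13 read -1.65 on array 031 against -0.22 to 0.32.

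CEN4 was negative on every wild-type Pol2 array and positive on every Rrm3 array that measured it, with a difference of 0.786. The test of that difference gave an adjusted p of 0.29.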

How the results depend on the processing

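Over 31 other settings for each of 20 medians and counts, 0 reversed a call. The Rrm3 CEN median lay between 0.42 and 0.66, and the differences between groups gave 0 called members under every setting. No cause of the changes below was tested. Without background subtraction, called CEN features were 1 in wild type and 0 on arrays labelled rrm3 delete, and called ICEN features in wild type 1. On arrays labelled rrm3 delete, called CEN features were 0 with normexp, loess, dim spots left out, arrays with the IP in Cy5 alone or without arrays 136 and 182, 3 with no spot filter, and 2 with no minimum number of arrays or without arrays 031 and 041. The last setting gave 2 in wild type. Called ICEN features in wild type were 0 with array 136 as labelled or with either dye orientation alone, and 1 with the deposited table or without arrays 136 and 182. Arrays with the IP in Cy5 alone gave 0 CEN and 1 ICEN called in the Rrm3 IP. Arrays with the IP in Cy3 alone, a setting added later, gave 0 CEN and 2 ICEN there (ICEN9 and ICEN14, both higher), 1 ICEN on arrays labelled rrm3 delete (ICEN9, higher, with ICEN3, ICEN4 and ICEN11 no longer called) and a wild-type ICEN median of 0.0254.

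Leaving out 1 array gave CEN medians of 0.13 to 0.27 in wild type, 0.16 to 0.24 on arrays labelled rrm3 delete and 0.47 to 0.60 in the Rrm3 IP, with 0 to 2, 0 to 2 and 2 to 10 called. ICEN medians were -0.24 to -0.06, -0.17 to 0.02 and -0.24 to 0.068, with 0 to 3, 2 to 4 and 1 to 6 called. With arrays left out, features of the main analysis were kept where at least 2 arrays per group remained (1 with a single dye orientation). This was chosen after the minimum of 3 arrays left few members: without array 039, 086 or 230 it left 5 CEN features, 2 of them called in the Rrm3 IP, with a wild-type CEN median of -0.0019 to 0.0675. At that minimum the 2 CEN features left with the IP in Cy3 alone had medians of -0.21 in wild type and -0.26 on arrays labelled rrm3 delete.

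Over all features, array 136 as labelled gave 5 higher and 28 lower in wild type, against 116 and 293, and leaving out array 039, 086 or 230 gave 10 and 56, 27 and 103, and 29 and 95. Without array 031 the counts were 451 and 646 there, 1818 and 1433 on arrays labelled rrm3 delete, and 236 higher (against 69) for these minus wild type. Leaving out array 041 as well gave 498 and 719, 1892 and 1516, and 242. Without arrays 136 and 182 wild type had 57 and 184. Arrays with the IP in Cy5 alone gave 0 higher and 10 lower in wild type, 374 and 261 on arrays labelled rrm3 delete, 166 and 520 in the Rrm3 IP and 0 in both differences, and those with the IP in Cy3 alone 1 and 0, 336 and 209, 295 and 304, and 0. Other settings moved the 69 to between 8 and 109, and the 1 feature called for the Rrm3 IP minus wild type to between 0 and 2. With features changed in simulation by 0.5, 1 and 1.5 on the log2 scale, the comparison of arrays labelled rrm3 delete with wild type recovered 0%, 35% and 73.5%. No paired analysis was possible because the groups share no replicate number. Neighbouring array numbers as a block had a correlation of 0.0385 and gave 9 called CEN features in the Rrm3 IP.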

Other observations

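Array 231, a Pol2 array whose labels contradict each other on the deletion, measured 16 CEN and 14 ICEN features. Its CEN median was 0.14 (10 of 16 above its array median), its ICEN median -0.47 and its tRNA median -0.17, and its RRM3 spot lay at percentile 21.7 of the input signal. CEN12 (1.02), CEN11 (0.81) and CEN6 (0.59) were its highest centromeres and CEN1 (-0.63) its lowest. Among ICEN features, ICEN1 read -1.72, ICEN4 -1.18 and ICEN11 -0.81, while ICEN9 read 1.66.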
